A study of Homo sapiens with 12 samples.

Results

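The mature miRNA content of exosomes was set against that of the cells they were isolated from, in cultures of AC16 that the labels name Con. AC16 is an established human line derived in part from cardiomyocytes. The comparison used 6 of the 12 libraries of the study, 3 of whole cells and 3 of exosomes, chosen by their titles. The other 6 libraries, named Ang, were used only for side-by-side values. The labels give no other treatment, dose or time for the Con cultures and do not spell the name out. They also do not say what fluid the exosomes were collected from or whether the medium held serum. The study looked for miRNAs regulated in exosomes of hypertrophic cardiomyocytes and for consensus sequences of exosomal miRNAs. The protocols in the labels name the miRNeasy Micro kit for RNA of the cells and the exoRNeasy Maxi kit for isolating exosomes and their RNA. Compartment and kit therefore cannot be told apart in any value that follows. Whether replicates 1 to 3 came from separate cultures is not stated, and p-values measure the spread between these samples, which may be technical.

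A miRNA is cut from a hairpin in a longer transcript by the nucleases Drosha and Dicer. One arm of the hairpin, 5p or 3p, is usually kept in an Argonaute protein as the guide, which pairs with target mRNAs mainly through its seed, bases 2 to 8. Mirtrons are hairpins released by splicing of a short intron and need no Drosha. Exosomes are small vesicles that cells release from late endosomes, and those of heart cells are known to carry miRNAs to neighbouring cells. Which miRNAs a vesicle holds can differ from those of its cell, and short sequence motifs and RNA-binding proteins are described as taking part in that choice.

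Each file lists counts of unique molecular identifiers (UMIs) per miRNA name, 1 UMI standing for 1 captured molecule. The cell Con libraries held 424041 to 528844 UMIs and the exosome Con libraries 888518 to 1029883. Levels are given in CPM, UMI counts scaled to the same library total. The files of both compartments held 2580 names in common, and 76 names listed in cells alone, none above 20 counts in a cell Con library, were taken as 0 in exosomes. A floor of 3 counts came to 5.67 to 7.07 CPM in cells and 2.91 to 3.38 CPM in exosomes, and covers counting error only. The cell libraries differed from each other by 1.34 to 1.97 times the counting noise (chi-square per degree of freedom). Exosome replicate 1 stood apart from exosome replicates 2 and 3 by 6.57 and 10.6 times, whereas these 2 differed by 1.91 times. Calls of named miRNAs that rest on exosome replicate 1 are given with and without it.

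The sequences below are mature miRNAs from the RefSeq table of build GRCh38.p14, which held 1536 of the 1710 names tested. They are written 5′ to 3′ with the seed in capitals. The first set holds the names that led or were most enriched in exosomes.
miR-552-3p: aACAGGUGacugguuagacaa
miR-3972: cUGCCAGCcccguuccagggca
miR-3944-5p: uGUGCAGCaggccaaccgaga
miR-671-3p: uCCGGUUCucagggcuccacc
miR-5008-3p: cCUGUGCUcccagggccucgc
miR-4638-3p: cCUGGACAccgcucagccggccg
miR-1913: uCUGCCCCcuccgcugcugcca
miR-1237-5p: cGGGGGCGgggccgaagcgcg
The second set holds names that led in the cells and took a smaller share of exosomes.
let-7a-5p: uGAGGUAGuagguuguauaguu
miR-16-5p: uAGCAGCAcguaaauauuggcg
miR-21-5p: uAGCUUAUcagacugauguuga
miR-510-3p: aUUGAAACcucuaagagugga
miR-125b-5p: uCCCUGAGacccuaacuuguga
miR-29a-3p: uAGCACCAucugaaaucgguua
The third set was well counted in cells and nearly absent from exosomes.
miR-12135: uAAAGGUUuguuuguaaa
miR-3684: uUAGACCUaguacacguccuu
miR-5582-3p: uAAAACUUuaagugugccuagg
miR-26a-2-3p: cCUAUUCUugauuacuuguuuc
let-7a-3p: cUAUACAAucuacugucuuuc
miR-606: aAACUACUgaaaaucaaagau
No 2 of the names within a set share a seed, and the first set is richer in G and C than the third. The share of G and C was 42.9% in miR-552-3p, 72.7% in miR-3972 and 76.2% in miR-5008-3p. It was 22.2% in miR-12135, 23.8% in miR-606, 36.4% in miR-5582-3p and 42.9% in miR-3684, the last equal to that of miR-552-3p.

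A few names held much of the exosome UMIs and together took a small share of cell UMIs, although some of them were abundant in cells too. The 10 most abundant names of exosomes took 40.3%, 39.4% and 39.0% of the UMIs of the 3 exosome libraries and 3.71%, 3.90% and 3.89% of those of the cell libraries. The 10 most abundant names of cells took 24.2%, 22.9% and 23.2% of cell UMIs and 5.11%, 6.02% and 6.41% of exosome UMIs. Between 57 and 61 names held 50% of the UMIs of a cell library, and 17 to 19 names did so in an exosome library. Names ending in 5p held 44.6% to 45.8% of cell UMIs and 23.4% to 25% of exosome UMIs.

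Because the libraries differ this much in make-up, each difference is given under 2 scalings. Library totals compare a name's share of all UMIs. TMM, the trimmed mean of M-values in edgeR, instead sets the scale so that the bulk of names sits near no change. The same name reads 1.51 log2 units, or 2.86-fold, higher in exosomes under TMM than under library totals. The amount of miRNA per exosome or per cell was not measured, so neither scaling gives an absolute amount. The median log2 difference, exosome minus cell, over the 1710 names tested was -0.27 under TMM and -1.78 under library totals.

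Under TMM, edgeR's quasi-likelihood test with Benjamini-Hochberg adjustment called 1425 names, 83.3% of those tested. Of these, 670 (39.2%) were higher and 755 (44.2%) were lower in exosomes. Under library totals it called 1500 names (87.7%), 349 (20.4%) of them higher and 1151 (67.3%) lower. The same call was made under both scalings for 1104 names (64.6%), namely 349 higher and 755 lower. The 349 names took 15.6% of cell UMIs and 80.6% of exosome UMIs, whereas the 755 took 59.5% and 5.19%. Levels in the 2 groups did not overlap for 1524 names (89.1%). Without exosome replicate 1, TMM called 641 names higher and 736 lower of 1664 tested, and library totals called 349 higher and 1135 lower. Of the calls shared by both scalings, 314 of the 349 and 674 of the 755 held when each library in turn was left out under either scaling.

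**Figure D1:**
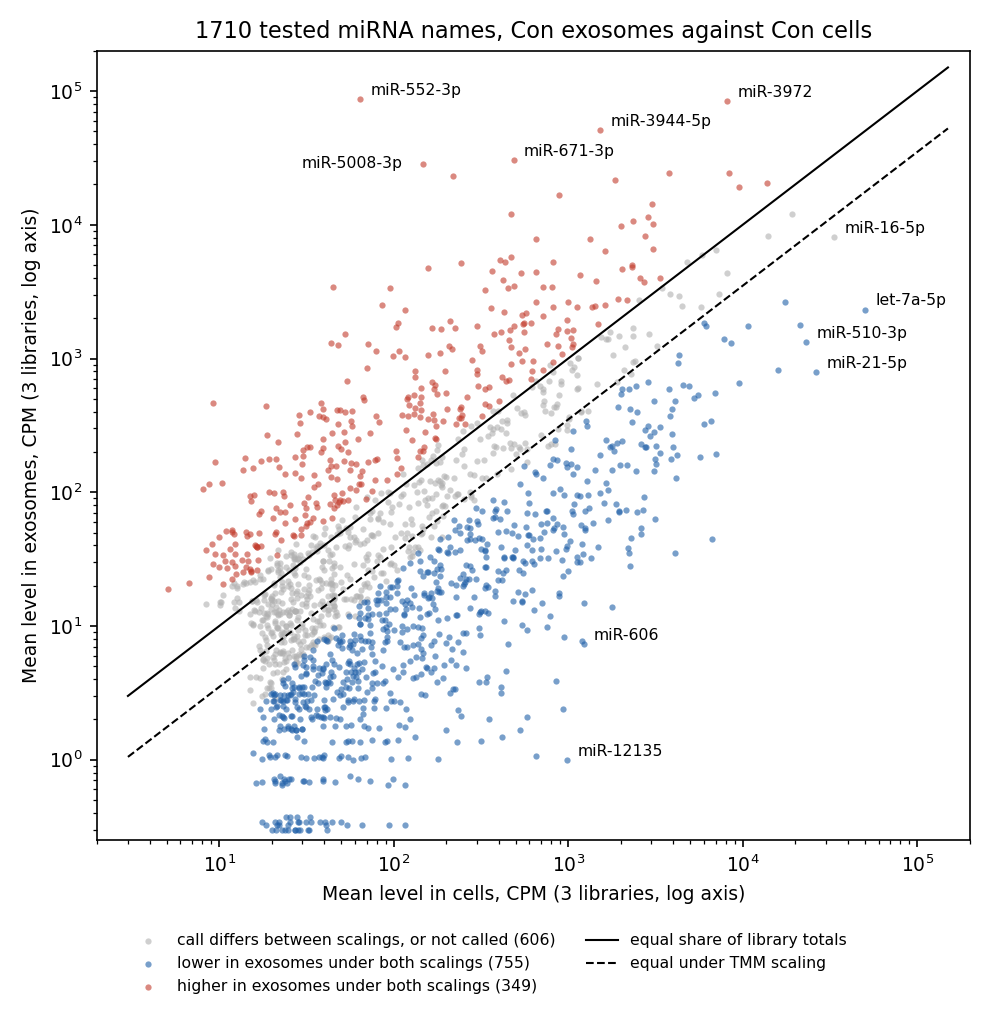
Mean CPM of each tested name in 3 cell Con libraries (x axis) and 3 exosome Con libraries (y axis), both axes logarithmic, with names at 0 in exosomes drawn at 0.3. Red points (349) were higher and blue points (755) lower in exosomes under both scalings. Names between the solid line (equal share of library totals) and the dashed line (equal under TMM) change direction with the scaling.

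The name that changed most was miR-552-3p, on the minus strand of chromosome 1 (chr1:34669614-34669634, GRCh38.p14) in no annotated host gene. It stood at 56.7, 62.0 and 73.1 CPM in the cell libraries and 89005, 88669 and 84622 CPM in the exosome libraries. The cell values rest on 93 UMIs in all and the exosome values on 252642. The log2 difference was 11.94 ± 0.09 (SE, adjusted p = 2e-14, edgeR) under TMM and 10.42 ± 0.10 under library totals. It went from a trace in cells to the highest mean of any name in exosomes, although in exosome replicate 3 miR-3972 was higher.

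miR-3972, in an intron of PADI3 (chr1:17277948-17277969), had the second highest mean in exosomes. Its level was 7870, 8467 and 8134 CPM in cells and 84314, 83199 and 85110 CPM in exosomes. Unlike miR-552-3p it was already an abundant name of the cells. The log2 difference was 4.88 ± 0.05 under TMM and 3.37 ± 0.05 under library totals (adjusted p = 1.39e-11 for the latter, edgeR).

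miR-3944-5p lies in an intron of ECHS1, the gene of a mitochondrial enzyme of fatty acid oxidation (chr10:133371621-133371641). It rose from 1420, 1566 and 1589 CPM in cells to 53717, 50606 and 49807 CPM in exosomes, a log2 difference of 6.59 under TMM and 5.07 under library totals. miR-671-3p overlaps an exon of CHPF2 (chr7:151238488-151238508). It went from 484, 496 and 479 CPM to 30852, 30205 and 29664 CPM, or 7.47 and 5.96 on the log2 scale. The 3 libraries of each compartment lay close together for both names, including exosome replicate 1.

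miR-5008-3p, in an intron of the ligand gene WNT9A (chr1:227941610-227941630), was at 185, 96.9 and 158 CPM in cells and at 29570, 28085 and 27559 CPM in exosomes. Its log2 difference was 9.11 ± 0.19 under TMM and 7.60 ± 0.19 under library totals. miR-6785-3p, which overlaps an exon of TMEM94, was at 193, 246 and 219 CPM in cells and at 24024, 22659 and 23086 CPM in exosomes. These 2 names and miR-552-3p were the 3 with the largest differences among names of at least 100 CPM in exosomes.

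The remaining names among the 10 largest differences were less abundant. miR-4638-3p was at 38.8 to 51.1 CPM in cells and 3292 to 3546 CPM in exosomes. miR-1913, in an intron of the kinase gene RPS6KA2, was at 83.2 to 114 CPM and 3284 to 3465 CPM. miR-331-3p was at 157 to 159 CPM and 4670 to 4936 CPM. For all 3 the lowest exosome library was at least an order of magnitude above the highest cell library. miR-4497 was at 37.7 to 47.3 CPM in cells and 1297 to 1326 CPM in exosomes. miR-554 was at 447 to 479 CPM in exosomes and at 7.56, 15.5 and 4.72 CPM in cells, the last being under the floor, so the size of its difference is poorly fixed.

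A further 3 leaders of the exosomes were already common in cells. miR-3153 was at 3356, 3825 and 4115 CPM in cells and 23331, 25140 and 24707 CPM in exosomes. miR-668-3p, a member of the imprinted chromosome 14 cluster, was at 8295, 8374 and 8235 CPM in cells and 25614, 23547 and 23724 CPM in exosomes. miR-4435, which has 2 genomic copies, was at 1662, 1922 and 1993 CPM and 22893, 21412 and 20656 CPM. Each was called higher under both scalings, with log2 differences of 4.21, 3.06 and 5.06 under TMM.

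The cells were led by guide strands that are abundant in many tissues, and those took small shares of exosomes. let-7a-5p, a repressor of growth-promoting genes, was at 54557, 48541 and 47385 CPM in cells and 1376, 2425 and 3168 CPM in exosomes. The log2 difference was -2.92 ± 0.24 (adjusted p = 7.02e-07, edgeR) under TMM and -4.43 ± 0.26 under library totals. The groups did not overlap, and exosome replicate 1 held the lowest level.

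miR-21-5p, whose hairpin lies within VMP1 (chr17:59841273-59841294) and which is known in the heart from fibroblast signalling and fibrosis, was at 27583, 25212 and 26330 CPM in cells. In exosomes it was at 489, 789 and 1082 CPM. It fell by 3.55 under TMM and 5.07 under library totals on the log2 scale, or 11.8-fold and 33.5-fold. Of the leading names of the cells it had the largest difference.

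miR-29a-3p, a repressor of collagen genes, was at 16621, 14693 and 16656 CPM in cells and 478, 840 and 1138 CPM in exosomes (log2 difference -2.78 under TMM, -4.29 under library totals). miR-125b-5p was at 22014, 21021 and 20998 CPM and 1154, 1876 and 2283 CPM (-2.08 and -3.59). For both names exosome replicate 1 was again lowest, and all exosome libraries lay below all cell libraries.

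A pair of leaders of the cells had tight exosome values instead. miR-510-3p, of the miR-506 to miR-514 cluster on the X chromosome, was at 21730, 22891 and 24401 CPM in cells and 1373, 1308 and 1298 CPM in exosomes (log2 difference -2.60 under TMM, -4.12 under library totals). miR-6793-5p, in an intron of the dynamin gene DNM2, was at 17618, 17544 and 17465 CPM and 2526, 2649 and 2722 CPM (-1.22 and -2.74).

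miR-16-5p, which represses cell cycle genes, was the second most abundant name of the cells, with 35642, 31918 and 32322 CPM. The exosome libraries held 2694, 9752 and 11811 CPM. The difference was not called under TMM (log2 -0.53 ± 0.39, adjusted p = 0.221, edgeR) and was called lower under library totals (-2.04 ± 0.41, adjusted p = 0.000868). Exosome replicate 1 lay far below the other exosome libraries. Without it the log2 difference under TMM was -0.11 (adjusted p = 0.239, edgeR), and without exosome replicate 3 it was -0.98 (adjusted p = 0.0237, called lower).

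miR-10400-5p was among the 10 leading names of both compartments, with 13594, 13922 and 13940 CPM in cells and 20046, 20615 and 20845 CPM in exosomes. It was called higher under both scalings, with a log2 difference of 2.08 under TMM and 0.57 under library totals. miR-1231, in an intron of NAV1, was at 18987, 19621 and 18694 CPM in cells and 12464, 11896 and 11693 CPM in exosomes. Its call turned with the scaling, from 0.85 under TMM to -0.67 under library totals. The same held for miR-6893-5p, at 13515 to 14061 CPM in cells and 8036 to 8452 CPM in exosomes (0.75 and -0.76).

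**Figure D2:**
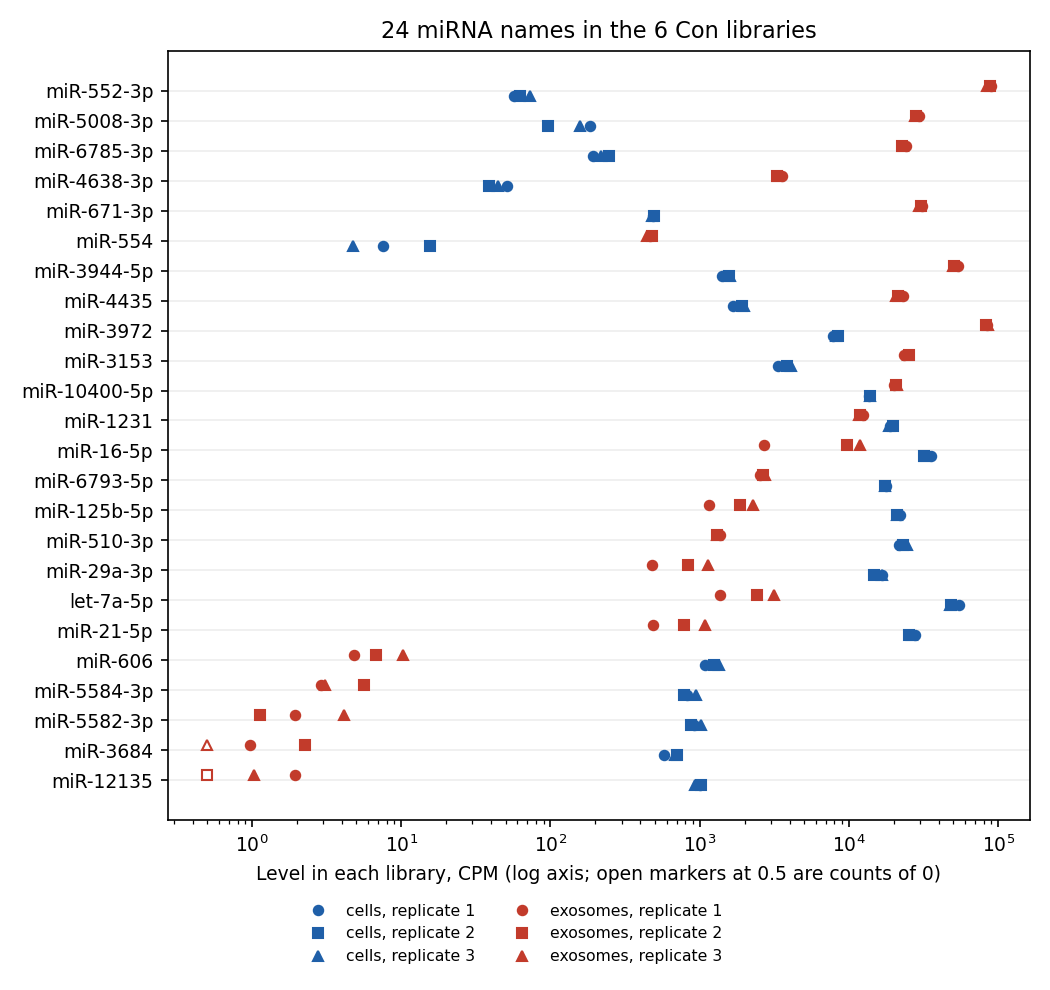
CPM of 24 names in each of the 6 Con libraries, on a logarithmic axis, with cells in blue, exosomes in red and the marker shape giving the replicate. The 3 exosome libraries lie close together for the exosome-high names, whereas exosome replicate 1 (red circles) lies lowest for let-7a-5p, miR-21-5p, miR-29a-3p, miR-125b-5p and miR-16-5p.

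Some names that were well counted in cells had a handful of UMIs in exosomes, although the exosome libraries were deeper. miR-12135 had 1460 UMIs over the 3 cell libraries and 3 over the 3 exosome libraries. Its share of the library was 957 times lower in exosomes by library totals (95% interval 327 to 4648, counting error only) and 335 times lower under TMM scaling. miR-3684, in an intron of METAP1, had 960 and 3 UMIs, 630 times lower by library totals (215 to 3058). At 936 to 1023 CPM and 577 to 705 CPM in the cell libraries, neither name is rare there.

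miR-5582-3p, in an intron of the mitotic spindle gene CKAP5, had 1371 UMIs in cells and 7 in exosomes. miR-606 had 1790 and 21, miR-5584-3p 1238 and 11, and miR-26a-2-3p 848 and 6. miR-759 had 775 and 5, miR-651-5p 610 and 4, and miR-10395-3p 460 and 4. The ratios by library totals of these 7 names ran from 168 for miR-606 to 385 for miR-5582-3p. let-7a-3p, the passenger strand of let-7a, had 170 UMIs in cells and 1 in exosomes. These were the 10 largest differences toward cells among names of at least 100 CPM there. In all, 107 names were at least 16-fold lower and 22 at least 16-fold higher in exosomes under both scalings.

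Of the tested names, 12 had no UMI in any of the exosome Con libraries. The largest share in cells among them was that of miR-8076, with 60 UMIs. Against a floor of 3 counts per library, it was at least 13.3-fold lower in exosomes by library totals and at least 4.65-fold lower under TMM scaling. No tested name was at 0 in all cell libraries.

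Guide strands of broadly expressed families took small shares of exosomes as a group. The lists of 12 such families or clusters (let-7, miR-17/92, miR-15/16, miR-29, miR-30, miR-34 with miR-449, miR-23/27/24, miR-125 with miR-99, miR-100 and miR-10, miR-181, miR-199 with miR-214, miR-221 with miR-222, and miR-143 with miR-145) held 68 names, of which 63 were tested. Under TMM 53 were lower and 4 higher (all names: 44.2% and 39.2%), with a median log2 difference of -2.09. Under library totals 62 were lower and none higher (all names: 67.3% and 20.4%), with a median of -3.60. The median over all names was -0.27 under TMM and -1.78 under library totals. Together they took 22.3%, 20.0% and 20.3% of the UMIs of the cell libraries and 1.09%, 2.41% and 3.01% of those of the exosome libraries. Exosome replicate 1 was the lowest exosome library for 53 of the 63 names, against 698 of the 1710 names tested (40.8%). Without it 53 were lower and 4 higher under TMM (all names: 736 and 641 of 1664), and the median was -1.84. Reads of near-identical members could have been split between names, since the counting rule is not given, which makes the value of any 1 member uncertain.

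In the let-7 family, 8 of 9 members were lower under both scalings (all names: 44.2%). miR-98-5p was at 299, 231 and 245 CPM in cells and 2.91, 10.1 and 13.4 CPM in exosomes. let-7f-5p was at 6476, 5823 and 5686 CPM and 169, 350 and 454 CPM. Both fell, by 3.37 and 2.70 on the log2 scale under TMM. let-7c-5p, named after its values were seen, was the exception, at 303, 227 and 219 CPM in cells and 66.0, 368 and 430 CPM in exosomes. The groups overlapped, the TMM difference was 1.71 ± 0.50 (adjusted p = 0.00862, edgeR) and the difference under library totals was 0.19 (adjusted p = 0.727). Without exosome replicate 2 the TMM difference was 1.49 (adjusted p = 0.051, edgeR), and without exosome replicate 1 the difference was called higher under library totals too, at 0.67.
let-7f-5p: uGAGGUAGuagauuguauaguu
miR-98-5p: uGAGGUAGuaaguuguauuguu
let-7c-5p: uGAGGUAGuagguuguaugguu
These are shown because let-7c-5p and its relatives differ by few bases outside a common seed.

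All 9 tested members of the miR-17/92 cluster and its paralogs, which promote proliferation, were lower under both scalings (all names: 44.2%). Their median was -2.0 under TMM and -3.47 under library totals (all names: -0.27 and -1.78). miR-20a-5p was at 758, 610 and 752 CPM in cells and 7.77, 13.5 and 23.7 CPM in exosomes. miR-19b-3p was at 575, 459 and 597 CPM and 4.85, 10.1 and 15.4 CPM. For both names the exosome level was lowest in replicate 1, which did not hold for miR-18a-5p (2, 1 and 1 UMIs in exosome replicates 1 to 3) or miR-17-5p (3, 4 and 2 UMIs).

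In the miR-15/16 family 5 of 7 members were lower under TMM and all 7 under library totals (all names: 44.2% and 67.3%). miR-15a-5p, from the same primary transcript as 1 copy of miR-16, was at 804, 752 and 795 CPM in cells and 4.85, 12.4 and 18.5 CPM in exosomes, a TMM difference of -4.53. miR-424-5p was at 514, 384 and 422 CPM and 1.94, 6.75 and 5.15 CPM, a difference of -5.06. The family was uneven, since miR-503-5p was lower with a TMM difference of -1.20 and miR-195-5p, like miR-16-5p, was not called under TMM (-0.79, adjusted p = 0.169, edgeR).

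All 3 miR-29 and all 5 miR-30 guides were lower under both scalings (all names: 44.2%). miR-29b-3p was at 2929, 2380 and 2578 CPM in cells and 25.2, 52.9 and 84.4 CPM in exosomes (log2 difference -4.09 under TMM). miR-30a-5p was at 3354, 2971 and 3228 CPM and 95.2, 163 and 225 CPM (-2.79). miR-30e-5p, from an intron of NFYC, was at 1242, 1167 and 1342 CPM and 31.1, 65.3 and 64.9 CPM (-3.04).

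In the miR-34 and miR-449 family 5 of 6 members were lower under TMM, in the miR-23/27/24 clusters 5 of 5, in the miR-125 group 6 of 7 and in the miR-221 and miR-222 cluster 2 of 2. miR-27b-3p was at 1278, 1244 and 1200 CPM in cells and 68.9, 70.9 and 78.2 CPM in exosomes. miR-221-3p was at 7480, 6451 and 6745 CPM and 355, 572 and 729 CPM. Under library totals every tested member of these 4 lists was lower. Over all names tested 44.2% were lower under TMM and 67.3% under library totals, and no test compared these shares.

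The miR-181 family, known from lymphocyte and heart studies, differed from that pattern. miR-181c-5p was at 541, 564 and 509 CPM in cells and 322, 429 and 416 CPM in exosomes, and miR-181b-5p at 183, 169 and 189 CPM and 105, 116 and 149 CPM. Both were called higher under TMM (1.04 and 0.97) and lower under library totals (-0.47 and -0.54). miR-181a-5p was not called under TMM (-0.53, adjusted p = 0.127, edgeR; without exosome replicate 3 called lower at -0.77) and was lower under library totals (-2.04).
miR-181a-5p: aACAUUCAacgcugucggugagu
miR-181b-5p: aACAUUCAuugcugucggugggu
miR-181c-5p: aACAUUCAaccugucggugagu
The 3 share the seed ACAUUCA, and their sequences are shown because their calls differ.

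Over the 1536 tested names with a sequence, 35 seeds were shared by at least 3 names, 127 names in all. For 7 of these seeds every name was lower in exosomes under both scalings, and for 0 every name was higher. Over all names tested 44.2% were lower and 20.4% higher under both scalings. No test compared the counts of seeds with these shares. The seed AGUGCAA of miR-130b-3p, miR-301a-3p, miR-301b-3p, miR-454-3p and miR-4295 had 5 of 5 names lower, with TMM differences from -4.05 to -1.92. The seed AGCAGCA of miR-16-5p had 4 of 7 names lower, with TMM differences from -5.06 to 1.55, the highest being that of miR-6838-5p, named after its values were seen. The seed GAGGUAG of let-7 had 8 of 10 names lower, the others being let-7c-5p and miR-4458. miR-4458, named after its values were seen, was at 39.7, 31.0 and 42.4 CPM in cells and 17.5, 24.8 and 23.7 CPM in exosomes. It was called higher under TMM and lower under library totals, and the TMM call was lost without exosome replicate 2 (0.60) or 3 (0.59).

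The seeds with the highest medians were rich in G. The seed GGAGAAG had miR-4516 and miR-4434 higher and miR-5703 lower, with TMM differences from -2.84 to 5.13. The seed GGCGGGG had 3 of 4 names higher under both scalings, with differences from -1.08 to 3.38. Names with a common seed therefore differed in direction in both.

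Among miRNAs described as promoting cardiac hypertrophy, 12 of 15 tested were lower and 2 higher under TMM, with a median of -1.95. Under library totals 14 were lower and none higher. Of those described as opposing it, 9 of 13 were lower and 1 higher under TMM (median -2.20), and all 13 were lower under library totals. Over all names tested 44.2% were lower under TMM and 67.3% under library totals, and no test compared these shares. Both lists share members with the guide families above. miR-22-3p, abundant in heart muscle, was at 1072, 907 and 986 CPM in cells and 31.1, 30.4 and 56.6 CPM in exosomes. miR-199b-5p was at 225, 205 and 248 CPM and 4.85, 2.25 and 3.09 CPM. miR-101-3p was at 2409, 2444 and 2568 CPM and 33.0, 69.8 and 110 CPM. All 3 were lower under both scalings, with TMM differences of -3.13, -4.47 and -3.62.

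Most of the listed miRNAs of heart and skeletal muscle were near the floor in the cells. Of 7 listed, 3 were tested, 2 of them lower under TMM and all 3 under library totals (all names: 44.2% and 67.3%). In cells miR-1-3p was at 7.07 to 17 CPM, miR-133a-3p at 14.1 to 17.4 CPM, miR-133b at 5.81 to 11.3 CPM, miR-206 at 7.56 to 11.8 CPM and miR-499a-5p at 7.75 to 28.4 CPM. In exosomes these 5 ranged from 0 to 7.21 CPM. The miR-208 pair, encoded in introns of the myosin heavy chain genes MYH6 and MYH7, was the exception. miR-208a-3p was at 202, 252 and 210 CPM in cells and 58.3, 59.6 and 68.0 CPM in exosomes. miR-208b-3p was at 92.7, 64.0 and 68.4 CPM and 5.83, 2.25 and 3.09 CPM.
miR-208a-3p: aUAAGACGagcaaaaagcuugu
miR-208b-3p: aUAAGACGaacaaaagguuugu
With the same seed, miR-208b-3p fell by 2.76 under TMM and 4.25 under library totals on the log2 scale. miR-208a-3p had -0.32 (adjusted p = 0.0486, edgeR) and -1.84, and its TMM call held in 1 of 6 fits that left out 1 library, that without exosome replicate 3 (-0.47).

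Markers of blood cells, liver and endothelium behaved differently between the exosome libraries. The 10 markers summed to 2809 to 2979 CPM in cells and to 690, 1751 and 1908 CPM in exosomes. Under TMM 2 of the 6 tested were higher and 2 lower (all names: 39.2% and 44.2%). Under library totals 1 was higher and 4 lower (all names: 20.4% and 67.3%). miR-486-5p, a red cell miRNA, was at 52.9, 56.2 and 63.7 CPM in cells and 121, 398 and 422 CPM in exosomes. It was higher under both scalings (3.95 ± 0.45 and 2.44 ± 0.47). In the Ang libraries it averaged 332 ± 517 CPM in cells and 98.5 ± 85.2 CPM in exosomes (SD, n = 3). There it was not called under either scaling. miR-126-3p, an endothelial miRNA, was at 274, 279 and 281 CPM and 118, 392 and 428 CPM. It was higher under TMM (1.68) and not called under library totals (0.16), where leaving out exosome replicate 1 gave a call of higher at 0.56. miR-223-3p, a myeloid miRNA and the most abundant of these markers, was at 2020, 2076 and 1901 CPM in cells and 385, 609 and 632 CPM in exosomes. It was lower under both scalings (-0.37 and -1.89), and its TMM call (adjusted p = 0.0436, edgeR) held in 1 of 6 fits that left out 1 library, that without exosome replicate 3 (-0.58). miR-150-5p, a lymphocyte miRNA, was at 41.6, 67.8 and 40.1 CPM and 19.4, 19.1 and 25.7 CPM, not called under TMM (0.28, adjusted p = 0.339, edgeR) and lower under library totals (-1.22). The other arm of the miR-126 hairpin, miR-126-5p, was at 301, 316 and 394 CPM in cells and 11.7, 42.8 and 44.3 CPM in exosomes.

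Red cell miR-451a and liver miR-122-5p were above the minimum count level of the filter in exosome replicates 2 and 3 only, fewer than a group of 3, and were not tested. miR-451a was at 7.56, 5.81 and 7.07 CPM in cells and 9.71, 92.3 and 128 CPM in exosomes. miR-122-5p was at 7.56, 9.69 and 0 CPM and 8.74, 123 and 156 CPM. In exosome replicate 1 both stood near their level in cells, and in the other 2 exosome libraries well above it. miR-144-3p, another red cell miRNA, had 1, 0 and 0 UMIs in exosomes. Without exosome replicate 1, 8 markers were tested under TMM, 5 of them higher and 1 lower (all names: 641 and 736 of 1664). The fluid the exosomes came from is not stated, so where these markers came from cannot be told. The part of these marker levels in the guide strand values, which were lowest in the same library, was not tested.

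Of the 5 mesenchymal markers, 3 were lower and 1 higher under TMM, and all were lower under library totals. Over all names tested 44.2% were lower and 39.2% higher under TMM, and 67.3% were lower under library totals. No test compared the lists of markers with these shares. miR-199a-3p was at 3027, 2822 and 2705 CPM in cells and 210, 295 and 442 CPM in exosomes, and miR-143-3p at 959, 952 and 910 CPM and 59.2, 107 and 118 CPM. miR-214-3p, from the same transcript as miR-199a, was at 314, 312 and 361 CPM and 175, 169 and 178 CPM. It was higher under TMM (0.60) and lower under library totals (-0.91). The 2 epithelial markers tested of 5, miR-205-5p and miR-200b-3p, were higher under TMM. Under library totals miR-205-5p was lower and miR-200b-3p was not called, except without cell replicate 1 (1.22, called higher). Of the 3 neuronal markers 1 was higher and 1 lower under TMM, and all were lower under library totals. The higher name, miR-9-5p (0.56, adjusted p = 0.0336, edgeR), was not called under TMM without exosome replicate 1 (0.49, adjusted p = 0.11, edgeR).

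Among names that are often described in exosomes, calls went both ways. Of 17 tested, 3 were higher under both scalings, namely miR-486-5p, miR-1246 and miR-1290. Under TMM 9 were lower, and under library totals 13. Over all names tested 20.4% were higher under both scalings, 44.2% lower under TMM and 67.3% lower under library totals, so these counts lie near the background. miR-1246 was at 149, 174 and 182 CPM in cells and 231, 395 and 528 CPM in exosomes, and miR-1290 at 73.7, 52.3 and 44.8 CPM and 113, 171 and 210 CPM. miR-483-5p, from an intron of IGF2, was at 416, 469 and 394 CPM and 31.1, 32.6 and 32.9 CPM. Without exosome replicate 1, 19 were tested under TMM, 7 of them higher and 8 lower. The miR-320 family, whose founding hairpin is made without Drosha, had 4 of 5 members lower under TMM and 5 of 5 under library totals. miR-320c was at 170, 172 and 215 CPM in cells and 20.4, 32.6 and 26.8 CPM in exosomes.

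Mirtrons leaned toward exosomes under TMM. Of 21 tested names of miR-877 and miR-1224 to miR-1238, a number range that holds mostly mirtrons, 17 were higher and 3 lower under TMM (all names: 39.2% and 44.2%), with a median of 2.18. Under library totals 10 were higher and 5 lower (all names: 20.4% and 67.3%), with a median of 0.67. The 24 listed names summed to 27080 to 29189 CPM in cells and 31409 to 32952 CPM in exosomes. Of the latter, 16191 to 17033 CPM were miR-1237-5p alone. miR-1237-5p, from an intron of RPS6KA4, was at 894, 886 and 875 CPM in cells and 17033, 16445 and 16191 CPM in exosomes. Its partner miR-1237-3p was at 45.4, 34.9 and 37.7 CPM and 259, 225 and 267 CPM. Both arms of this hairpin rose under both scalings. In the opposite direction, miR-1227-3p was at 5905, 5988 and 5228 CPM in cells and 187, 183 and 178 CPM in exosomes, a TMM difference of -3.45.

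The series miR-6715 to miR-6895, described as mostly mirtron-like, showed the scaling's effect. Of 126 tested 5p names, 68 were higher and 31 lower under TMM (all names: 39.2% and 44.2%), and 40 higher and 67 lower under library totals (all names: 20.4% and 67.3%). Of 133 tested 3p names, 73 were higher and 29 lower under TMM, and 35 and 72 under library totals. The 5p names summed to 68406 to 70015 CPM in cells and 41605 to 42032 CPM in exosomes. The 3p names summed to 36464 to 38640 CPM in cells and 56073 to 58335 CPM in exosomes, of which miR-6785-3p alone gave 22659 to 24024 CPM. miR-6836-3p was at 639, 620 and 691 CPM in cells and 2613, 2765 and 2626 CPM in exosomes. miR-6743-5p was at 520, 560 and 557 CPM and 2055, 2079 and 2214 CPM. Both were higher under both scalings.

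Names that overlap fragments of ribosomal, small nuclear or transfer RNA were split. Of 29 tested, 18 were higher and 9 lower under TMM (all names: 39.2% and 44.2%), and 12 higher and 13 lower under library totals (all names: 20.4% and 67.3%). miR-3960 was at 1329, 1337 and 1314 CPM in cells and 7391, 8048 and 8063 CPM in exosomes, miR-4516 at 696, 682 and 578 CPM and 7684, 7723 and 7959 CPM, and miR-663b at 2082, 2037 and 1915 CPM and 10248, 9903 and 9436 CPM. Whether reads of such RNAs were counted under these names was not tested. Of 7 names made from small nucleolar RNA genes, 4 were higher and 1 lower under TMM, and 3 and 4 under library totals. miR-1292-3p, in the snoRNA host NOP56, was at 2398, 2358 and 2316 CPM in cells and 10599, 10648 and 10763 CPM in exosomes.

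The miR-548 family, which derives from a transposon and is rich in A and U, was at the other end. Of 81 listed names 15 were tested, and 36 had no UMI in any exosome Con library. Of those tested, 12 were lower and 2 higher under TMM (all names: 44.2% and 39.2%), and 14 and 1 under library totals (all names: 67.3% and 20.4%). miR-548as-5p was at 2280, 2285 and 2337 CPM in cells and 46.6, 38.3 and 52.5 CPM in exosomes, a TMM difference of -4.13. Its exosome libraries, replicate 1 included, lay close together.

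In the imprinted chromosome 14 cluster 21 of 86 tested names were higher and 61 lower under TMM (all names: 39.2% and 44.2%), and 11 and 72 under library totals (all names: 20.4% and 67.3%). The cluster as a whole took 51443 to 53590 CPM in cells and 43746 to 45780 CPM in exosomes, a smaller difference than the count of lower members alone would give. Besides miR-668-3p, miR-370-3p rose from 2872, 3116 and 3160 CPM to 7043, 6347 and 6437 CPM. In the chromosome 19 cluster, active mainly in placenta, 6 of 22 tested names were higher and 9 lower under TMM (all names: 39.2% and 44.2%). Under library totals 1 was higher and 17 lower (all names: 20.4% and 67.3%). miR-519c-3p was at 2481, 2676 and 2662 CPM in cells and 43.7, 49.5 and 52.5 CPM in exosomes. In the miR-506 to miR-514 cluster 2 of 8 were higher and 5 lower under TMM, and none and 7 under library totals, against the same shares over all names. miR-508-5p, a neighbour of miR-510-3p, was at 212, 234 and 250 CPM and 276, 245 and 232 CPM, with overlapping groups.

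**Figure D3:**
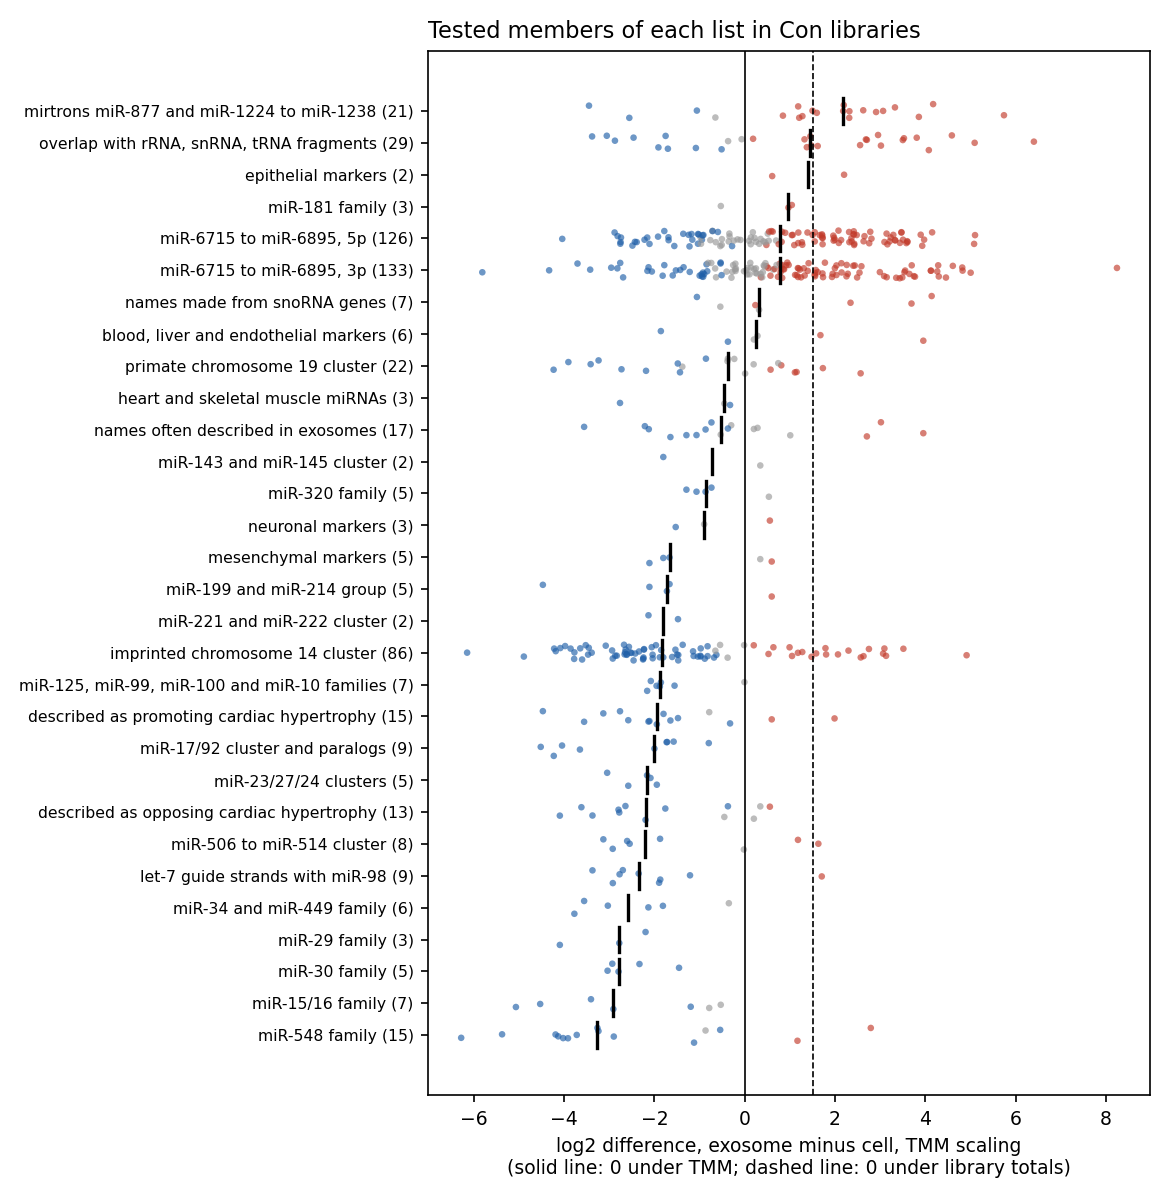
The log2 difference, exosome minus cell, under TMM for each tested member of the lists (number tested in brackets), with the list's median as a black bar. Red points were called higher, blue lower and grey not called under TMM. The dashed line at 1.51 is the point of no difference under library totals, and the medians of the guide families lie left of 0, except that of the miR-181 family (0.97), while that of the mirtrons lies right of both lines.

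Besides miR-16-5p, the most abundant names without a call under TMM were miR-1471, miR-4321, miR-3178 and miR-6507-5p. Their TMM differences were 0.14, -0.07, 0.17 and 0.01. Without cell replicate 1 miR-1471 was called higher under TMM (0.24), and without cell replicate 2 so was miR-3178 (0.27). Each of the 4 was called lower under library totals, miR-1471 at 3066 to 3443 CPM in cells and 1188 to 1295 CPM in exosomes. Abundant names with opposite calls, besides miR-1231 and miR-6893-5p, were miR-664a-5p, miR-4771 and miR-4652-3p. miR-4771 was at 7165, 7163 and 6900 CPM in cells and 6534, 6417 and 6346 CPM in exosomes, a TMM difference of 1.38 and a difference of -0.14 by library totals (adjusted p = 0.0389, edgeR). The latter call held only without cell replicate 3 or exosome replicate 1 among the 6 fits that left out a library. For such names the data fix the ratio of shares but not a direction.

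The 2 arms of a hairpin share a transcript, and their ratio within a library does not depend on the scaling. The ratio was tested for 401 hairpins with limma on log2 values of the 5p count over the 3p count, each plus 0.5. It differed between exosomes and cells for 303 (75.6%), of which 146 (36.4%) moved toward 5p and 157 (39.2%) toward 3p. In 95 of the called hairpins the major arm was not the same, 44 passing to 5p and 51 to 3p. The call held in every fit that left out 1 library for 246 of the 303. Of the 401 ratios, 167 lay closer to 1 in exosomes than in cells, and the median size of the log2 ratio was 2.55 against 2.21 in cells.

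miR-552 changed most. Its 5p arm had 21, 22 and 15 UMIs in the cell libraries against 30, 32 and 31 of the 3p arm. In exosomes the 5p arm had 1, 1 and 0 UMIs against 91665, 78784 and 82193. The 5p share was 38.2% ± 4.83 in cells (SD, n = 3) and about 0.001% in exosomes, so miR-552-3p rose without its partner.
miR-552-5p: gUUUAACCuuuugccuguugg
miR-552-3p: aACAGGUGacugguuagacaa
Both arms are shown because they have equal length and equal G and C content, 42.9%.

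Other hairpins passed from 5p to 3p. The 5p share of miR-6785 was 74.6%, 72.0% and 72.4% in the cell libraries and 0.242%, 0.178% and 0.191% in the exosome libraries. That of miR-597 was 89.3%, 88.1% and 88.8% in cells and 0.801%, 0.909% and 0.752% in exosomes. miR-204 went from 82.0% ± 5.81 to 1.11% ± 1.92 (SD, n = 3), on 43 to 60 UMIs per exosome library. miR-331 and miR-5006, already mostly 3p in cells at 24.2% and 14.7% of 5p, were at 0.143% and 0.142% in exosomes.

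Passing to 5p, miR-369 of the chromosome 14 cluster had a 5p share of 33.3%, 32.7% and 31.9% in cells and 97.9%, 97.6% and 97.0% in exosomes. In levels, miR-369-5p was at 609, 560 and 531 CPM in cells and 1134, 1259 and 1142 CPM in exosomes, while miR-369-3p was at 1220, 1155 and 1134 CPM and 24.3, 30.4 and 35 CPM. One arm thus rose and the other fell under both scalings.
miR-369-5p: aGAUCGACcguguuauauucgc
miR-369-3p: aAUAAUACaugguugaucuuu
The arms are printed because they differ in make-up, with 45.5% of G and C in the 5p arm and 23.8% in the 3p arm. miR-6529 went from 4.38% ± 0.800 of 5p in cells to 91.7% ± 3.71 in exosomes (SD, n = 3), miR-4433a from 14.2% ± 4.01 to 96.6% ± 0.690, and miR-10397 from 16.9% ± 4.09 to 97.9% ± 1.21. miR-4724 and miR-3944 were mostly 5p in cells, at 79.9% and 95.4%, and almost wholly so in exosomes.

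**Figure D4:**
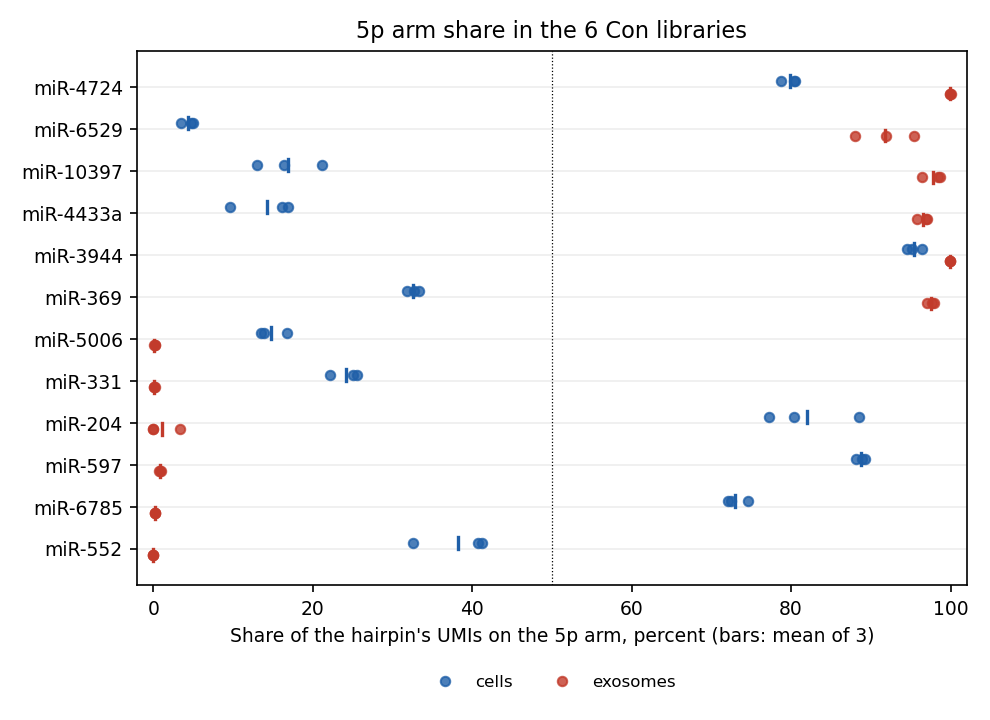
Share of a hairpin's UMIs on its 5p arm in each of the 3 cell (blue) and 3 exosome (red) Con libraries, with the mean as a bar, for the 6 called hairpins with the largest change in ratio each way. The groups do not overlap for any of these 12, which were picked for the size of their change, so this says nothing of other hairpins. Of the 12, 7 cross the dotted line at 50%. Among all 303 called hairpins, 95 had another major arm in exosomes than in cells.

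Exosomal names were richer in G and C. Weighted by UMIs, the G and C content of mature sequences was 54.3%, 54.8% and 54.5% in the cell libraries and 65.4%, 64.9% and 64.8% in the exosome libraries. With each library's own 10 leading names left out it was 57.3% to 57.6% in cells and 67.3% to 68.5% in exosomes. Names called higher under both scalings had a median of 65.2% and names called lower 47.6%, against 54.5% for all tested names with a sequence. Median length was 22 bases in all 3. Across the 1536 names, which share libraries and are no independent replicates, G and C content and the TMM difference had a Pearson correlation of 0.56 and a Spearman correlation of 0.58.

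Of 202 names with less than 40% of G and C, 4.46% were higher and 85.1% lower under both scalings, and the median TMM difference was -2.76. Of the names with at least 70%, 49.5% were higher and 9.46% lower, and the median was 1.88. Between these, the share of names higher in exosomes was 7.64%, 13.5% and 32.0% in successive bins of 10 percentage points. The leading exosome name, miR-552-3p, is an exception with 42.9%.

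**Figure D5:**
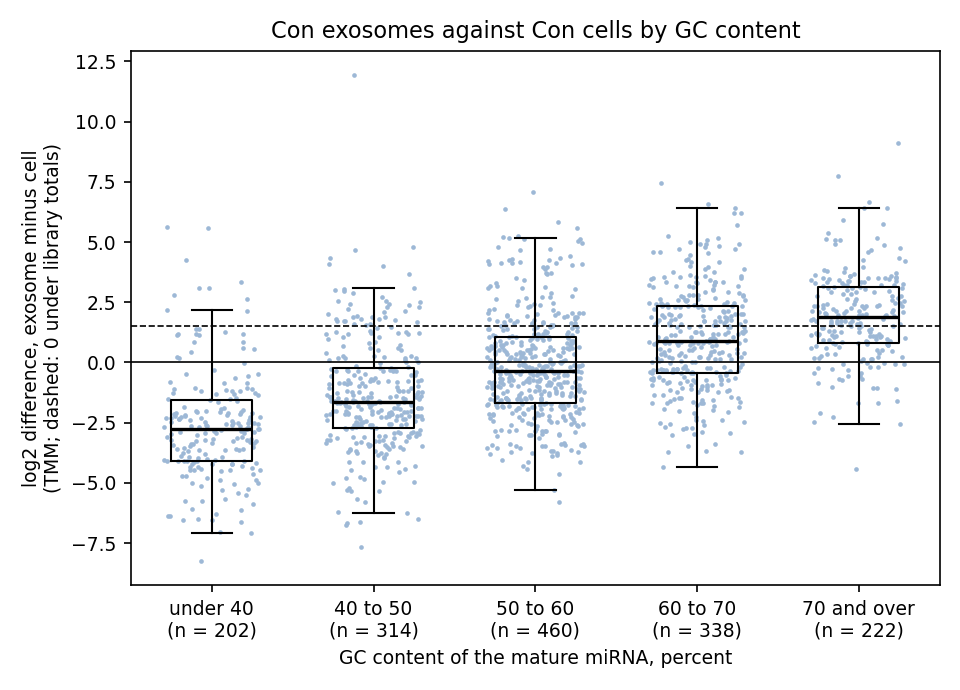
The log2 difference, exosome minus cell, under TMM for the 1536 tested names with a sequence, by G and C content of the mature miRNA in percent. Boxes span the middle quartiles with the median as a thick bar, whiskers reach to 1.5 times the box, and each point is a name. Medians climb from -2.76 under 40% to 1.88 at 70% and over, and the dashed line marks no difference under library totals.

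Short motifs described for exosomal sorting were counted on the mature strand. GGAG occurred in 280 of the 1536 names (18.2%), of which 26.4% were higher in exosomes under both scalings, against 19% of names without it. For GGCU it was 30.2% of the names holding it (14.5% of all) against 18.7%, and for CCCU 28.5% of 221 names (14.4%) against 19%. None of the 33 names with CUUUG (2.15%) was higher, against 20.8% of those without it. Names with GGAG, GGCU or CCCU were also richer in G and C, with medians of 60.9%, 63.2% and 61.9%, and those with CUUUG poorer, with 47.6%. Within bins of G and C content the difference varied in sign for GGAG, GGCU and CCCU. For CUUUG it did not, but the 4 bins that held it had only 5, 13, 11 and 4 such names. In each of them 0% were higher, against 4.57%, 7.97%, 13.8% and 32.3% of names without it. So few names cannot show a difference apart from G and C content. At 70% and over, where no name held CUUUG, 40.7% of names with GGAG were higher against 52.8% of those without it, and at 40% to 50% it was 21.4% against 6.29%. A match is a description of letters and not of a bound protein.

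Of the other 6 libraries, the Ang exosomes and cells gave the same contrast in samples that the Con comparison did not use. Under TMM 1355 of 1627 names were called there (83.3%), 621 (38.2%) higher and 734 (45.1%) lower. Under library totals 90.3% were called, 296 (18.2%) higher and 1173 (72.1%) lower. Of the 349 names higher in Con under both scalings, 340 were tested in Ang, and 271 were called higher there under both scalings. Opposite calls were made for 1 under TMM and 16 under library totals. Of the 755 lower names, 703 were tested and 640 called lower under both scalings, with 4 opposite under TMM and 0 under library totals. Whether the differences differ between Con and Ang was not tested here. miR-552-3p averaged 92.2 CPM in Ang cells and 150509 CPM in Ang exosomes, and miR-21-5p 29263 and 1003 CPM. In these libraries too miR-552-3p was a trace in cells and abundant in exosomes, and miR-21-5p was far lower in exosomes than in cells.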

How the data were processed

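The authors deposited 1 file per library with unnormalized UMI counts per mature miRNA name, which the values bear out as whole numbers. The submitters' processing notes name cutadapt and build GRCh38. Aligner, counter and annotation: not given in the sources used here. Depth was 424041 to 1029883 counts in the 6 libraries compared, and only counting error is covered by intervals and floors.

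Names absent from exosome files were set to 0. Counts of the 6 Con libraries were fitted with edgeR 4.0.16 in R 4.3.3 (filterByExpr, TMM or library totals, quasi-likelihood test with robust off, two-sided, Benjamini-Hochberg adjustment over 1710 names, threshold 0.05). Standard errors are the log2 difference divided by the root of the F statistic. Adjusted p-values without another name come from this fit. The 946 names not tested held 0.869% of cell and 0.259% of exosome counts. Arm ratios used limma 3.58.1 with an intensity trend on log2 ratios of the 5p to the 3p count plus a pseudocount of 0.5, for hairpins whose arms each had a mean of at least 10 counts in a compartment and whose arms together had that mean in both. Both tests were tested on simulated data in which fewer and smaller changes were set than are called here. That run therefore does not show how they fare with libraries that differ this much in make-up.

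Members and lists were chosen with earlier results of these data known, and a list got no test of its own. Named miRNAs followed a rule. It took the 10 largest differences each way with the same call under both scalings, at least 100 CPM and no overlap, the 10 most abundant names of each group, up to 4 members of each list with the lowest p, the 5 most abundant names without a TMM call and the 5 with opposite calls, and the 6 largest arm changes each way. let-7c-5p, miR-4458, miR-8076, miR-17-5p, miR-195-5p, miR-503-5p, miR-6838-5p and miR-150-5p were added after their values were seen.

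Same-numbered cell and exosome libraries did not deviate together (correlations of deviations -0.035, -0.007 and -0.031), so replicate numbers were not used as a pairing. The cell libraries were only 1.34 to 1.97 times the counting noise apart, so these correlations cannot exclude a pairing. Alternatives were RLE and upper quartile factors, library totals with and without the 10 leading exosome names, DESeq2 1.42.0, limma-voom, no filter or a mean of 10 CPM, thinning to 1 total, all 12 libraries, a replicate block, each library left out, and other pseudocounts and count minimums for arms. Hosts are from GENCODE 29 on GRCh38, and sequences and their positions from the RefSeq table of GRCh38.p14, which held 2367 of 2656 names.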

Additional observations from a re-analysis of the deposited data

Results flagged for a closer look

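The log2 difference of miR-10400-5p, exosome minus cell, by library totals was -0.553 in the Ang libraries and 0.57 in the Con libraries, with no overlap of the groups in either set. Its mean was 13819 CPM in Con cells and 20502 CPM in Con exosomes, and 12405 and 8456 CPM in the Ang libraries. Under TMM both differences were positive, 2.08 in Con and 1.34 in Ang. The difference between the sets was not tested.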

How the results depend on the processing

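With library totals in place of TMM, 349 names were higher and 1151 lower in Con, and 296 higher and 1173 lower in Ang. With library totals and no count filter, 1756 names were lower in Con. With a minimum of 50 counts per arm, 112 of 136 hairpins were called, 49 toward 5p and 63 toward 3p. These settings test other numbers of features or another scale. Leaving out each library in turn gave 1346 to 1479 calls in Con (615 to 700 higher, 731 to 785 lower), 1457 to 1623 under library totals (335 to 349, 1122 to 1282), 278 to 301 for arms and 1302 to 1417 in Ang (601 to 655, 693 to 767). The fits under library totals that left out a library, had a block or had no filter were chosen after seeing the data.

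A replicate block gave 1398 calls in Con (657 higher, 741 lower), 1478 under library totals (336 and 1142), 287 for arms (138 and 149) and 1345 in Ang (620 and 725). The labels do not say whether same-numbered libraries were paired. The correlations of deviations cannot decide it, since the cell libraries differed little beyond counting noise.

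Of 120 single miRNAs or hairpins, 95 kept direction and side of the threshold under every setting run. Under library totals the log2 difference reversed for miR-1231 (-0.67), miR-145-5p (-1.16), miR-1471 (-1.37), miR-181b-5p (-0.54), miR-181c-5p (-0.47), miR-205-5p (-0.91), miR-214-3p (-0.91), miR-3178 (-1.34), miR-4458 (-0.78), miR-4652-3p (-0.91), miR-4771 (-0.14), miR-6507-5p (-1.50), miR-664a-5p (-1.28) and miR-6893-5p (-0.76). Under library totals without the 10 leading exosome names it reversed for miR-145-5p (-0.50), miR-1471 (-0.70), miR-205-5p (-0.23), miR-214-3p (-0.24), miR-3178 (-0.67), miR-4458 (-0.11), miR-4652-3p (-0.24), miR-6507-5p (-0.83), miR-664a-5p (-0.61) and miR-6893-5p (-0.091). With upper quartile factors it reversed for miR-145-5p (-0.0021), miR-1471 (-0.20), miR-3178 (-0.18), miR-6507-5p (-0.33) and miR-664a-5p (-0.11), and with counts thinned to 1 total for miR-1471 (-0.083), miR-3178 (-0.086) and miR-6507-5p (-0.22). For miR-6507-5p it also reversed with RLE factors (-0.020), DESeq2 (-0.020) and a mean of at least 10 CPM (-0.013), and leaving out 1 library gave -0.054 to 0.12. Apart from the change of scale itself, the cause was not tested. Other settings called 1437 names in Con with RLE factors, 1468 with upper quartile factors, 1364 with DESeq2, 1423 with limma-voom, 1649 of 2655 with no filter and 1229 of 1420 with thinned counts. Depth limits what can be said of names near the floor of 3 counts.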
